A study of Caenorhabditis elegans with 2 samples.

Results

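The nuclear hormone receptor genes of the nematode Caenorhabditis elegans were examined for regions bound by the zinc-finger protein ZTF-7. The 269 protein-coding genes whose name starts with nhr- were chosen by name from the Ensembl annotation of build WBcel235 (ce11), out of 19985 protein-coding genes. Binding was mapped by ChIP-seq, in which DNA held by a tagged protein is pulled down and sequenced. All samples came from 1 group, whole L4 larvae of pooled sexes of strain OP332, which carries unc-119(tm4063) and the integrated transgene wgIs332 with eGFP-tagged ztf-7. The 2 biological replicates both carry the transgene, and no control sample was analysed here, so conditions could not be compared. The tag reports a transgene rather than the native gene, and whole larvae mix all tissues.

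Nuclear hormone receptors are transcription factors with a zinc-finger DNA-binding domain and, in most, a domain that binds small lipophilic ligands. Nematodes carry a greatly expanded family, most of it related to the vertebrate receptor HNF4, beside a smaller set with direct counterparts in insects and vertebrates. Members with known functions act in fat and sterol metabolism, xenobiotic and hypoxia responses, moulting and development, and many others have no described role.

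Few receptor genes carried a reproducible ZTF-7 peak. The submitters kept 1311 peaks as reproducible by IDR, a measure of how well peak ranks repeat between replicates. A summit of that list lay no farther than 1000 bp from the 5' end at 18 nhr genes, or 6.69% (exact 95% interval 4.01 to 10.4%), against 5.61% of all protein-coding genes. The interval includes the background, so the share does not set the family apart. These 18 genes had 18 separate summits. Where a summit counted for the closest gene alone, piRNA genes set aside, 14 of them were left, against a background of 3.33%. Intervals on shares cover counting error only, and neighbouring genes are not independent.

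With regions short of the threshold counted as well, a listed region was common at receptor genes. The 18 genes with an IDR summit are part of the pooled count below. The submitters label the pooled and replicate lists as peaks and background given to IDR, so a listed region need not be bound. The pooled list, which ranks 30000 regions by signal, held a region at 129 nhr genes (47.96%, exact 95% interval 41.9 to 54.1%) against a background of 40.2%. Replicate 1 had one at 145 genes (53.9%, background 47.3%) and replicate 2 at 130 (48.3%, background 40.8%). Other protein-coding genes stood at 40.1% in the pooled list, below the interval of the nhr genes. Among the genes with a pooled region, the median signal value was 21.4 at nhr genes and 20.0 at other coding genes. The signal is a score per region set by the submitters' peak caller, so its values order regions inside 1 list and do not compare between lists.

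At 104 of the 269 genes no region was listed in the pooled or replicate lists. Both replicates had a region at 113 genes, replicate 1 alone at 32 and replicate 2 alone at 17. Down the pooled ranking, 32 nhr genes had a region among the first 2622, 51 among the first 5000 and 84 among the first 10000. These counts were not made over all coding genes, so they do not set the family apart. Among genes with a pooled region, the median rank was 6792 at nhr genes and 7793 at other coding genes. The family's regions ran from nhr-3 at rank 229 to nhr-225 at rank 28466. The highest pooled signal was 99.7 at nhr genes and 3572.68 at other coding genes, mitochondrial genes included.

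The strongest receptor peaks lay at nhr-3, nhr-47, nhr-142 and nhr-58, for which no function is given here. At nhr-3 the peak spanned chromosome X 14557683 to 14558006 and scored 99.7 in the pooled list, with 36.04 in replicate 1 and 69.1 in replicate 2. At nhr-47 it spanned chromosome V 5505086 to 5505409 and scored 98.7, with 47.7 in replicate 1 and 47.5 in replicate 2. Both ranked high in each replicate, nhr-3 at 496 and 166 and nhr-47 at 228 and 458 in replicates 1 and 2. The nhr-142 peak (chromosome V, 5791023 to 5791153) scored 96.6 in the pooled list, with 37.4 in replicate 1 (rank 458) and 59.0 in replicate 2 (rank 242). The nhr-58 peak (chromosome V, 532035 to 532358) scored 90.8, with 42.9 in replicate 1 (rank 313) and 45.4 in replicate 2 (rank 514). Over all 18 nhr genes the median pooled signal was 63.3, against 67.8 for the other coding genes with an IDR summit.

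**Figure D1:**
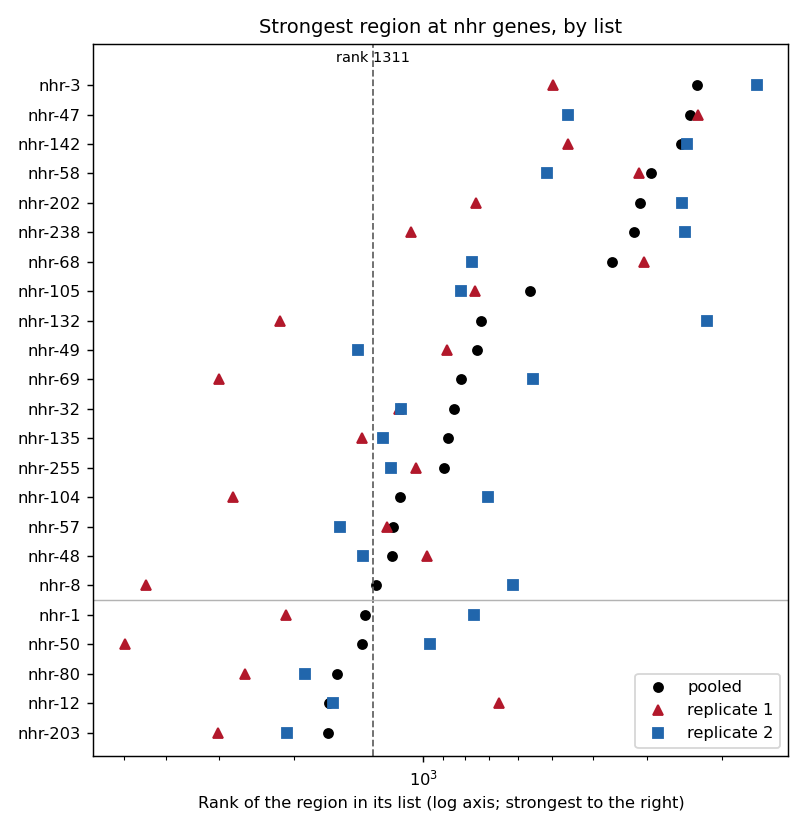
Rank of the strongest region within 1000 bp of the 5' end in the pooled list (black circles), replicate 1 (red triangles) and replicate 2 (blue squares), for the 18 nhr genes with an IDR summit and, below the grey line, the next 5 by pooled signal. The axis is logarithmic with the strongest regions to the right, and the dashed line marks rank 1311, which nhr-8 passes in the pooled list (1291) and in replicate 2 (615) but not in replicate 1 (4439).

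To show what the summits hold, 200 bp windows of build ce11 were read from the RefSeq genome on the gene's strand, 5' to 3'. Capitals mark matches on either strand to 4 motifs. These were AGGTCA, the half-site of many nuclear receptors, GTTCGANNC, the B box inside tRNA genes, CTGCGTC, an element of broadly active worm promoters, and the GA repeat GAGAGA, whose matches can overlap each other and CTGCGTC. The nhr-58 (chrV:532059-532258, plus strand) and nhr-132 (chrV:534224-534423, plus strand) windows come first, since these neighbours 2187 bp apart both had an IDR summit and both hold CTGCGTC. Next are nhr-57 (chrV:4131434-4131633, plus strand) and nhr-105 (chrIV:7049723-7049922, plus strand) for their GA repeats. The nhr-238 window (chrV:1629461-1629660, minus strand) holds no match although nhr-238 was called under each of the 11 alternatives for the summit count. The nhr-255 window (chrX:15741947-15742146, plus strand) shows a tRNA gene at the summit.
nhr-58: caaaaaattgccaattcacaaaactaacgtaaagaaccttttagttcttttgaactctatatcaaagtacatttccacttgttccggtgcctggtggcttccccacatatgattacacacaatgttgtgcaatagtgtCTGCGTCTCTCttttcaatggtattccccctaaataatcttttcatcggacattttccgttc
nhr-132: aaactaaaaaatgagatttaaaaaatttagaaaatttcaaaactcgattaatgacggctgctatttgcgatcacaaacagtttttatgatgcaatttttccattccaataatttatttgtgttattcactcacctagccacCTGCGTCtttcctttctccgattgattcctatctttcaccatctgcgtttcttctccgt
nhr-57: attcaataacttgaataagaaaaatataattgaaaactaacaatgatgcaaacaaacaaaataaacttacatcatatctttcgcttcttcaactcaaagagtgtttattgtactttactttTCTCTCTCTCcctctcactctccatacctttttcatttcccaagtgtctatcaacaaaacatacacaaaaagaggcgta
nhr-105: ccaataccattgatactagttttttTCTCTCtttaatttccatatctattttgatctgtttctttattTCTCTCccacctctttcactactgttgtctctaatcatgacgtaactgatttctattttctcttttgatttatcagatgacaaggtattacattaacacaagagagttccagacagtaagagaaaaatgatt
nhr-238: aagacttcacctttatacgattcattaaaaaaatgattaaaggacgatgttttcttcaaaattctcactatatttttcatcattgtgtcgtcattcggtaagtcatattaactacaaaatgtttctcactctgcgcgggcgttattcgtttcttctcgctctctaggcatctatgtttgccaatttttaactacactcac
nhr-255: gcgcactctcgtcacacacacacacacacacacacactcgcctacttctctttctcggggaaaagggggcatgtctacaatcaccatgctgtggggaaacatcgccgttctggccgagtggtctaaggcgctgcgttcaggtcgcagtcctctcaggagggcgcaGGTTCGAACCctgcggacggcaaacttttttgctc

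The GA repeat was the most frequent of the 4 motifs at the nhr summits. GAGAGA lay within 100 bp of the summit at 11 of 18 nhr genes (61.1%), against 36.2% of all 1289 nuclear IDR summits and 13.7% of pooled summits outside the IDR list. In the 200 bp upstream of the 5' end it was found at 22.3% of nhr genes and 16.3% of all coding genes. CTGCGTC lay at 2 of the 18 summits (11.1%), those of nhr-58 and nhr-132, against 14.2% of all nuclear IDR summits and 3.25% of coding promoters. AGGTCA lay at 0 of the 18, against 4.58% of all nuclear IDR summits and 5.93% of coding promoters. GTTCGANNC lay at 1 of the 18, that of nhr-255, against 7.68% of all nuclear IDR summits and 0.906% of coding promoters. These differences were not tested. The median GC content was 39.2% at the nhr summits, 41.5% at all nuclear IDR summits and 31.0% at the other pooled summits. A match describes letters in a window and no binding site, and base composition differs between these sets of windows.

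Of the 18 genes, 10 were among the 1311 strongest regions of both replicates, 3 of replicate 1 only and 5 of replicate 2 only. Among the other 1103 coding genes with an IDR summit, 549 (49.8%) were among the strongest of both. Over all 269 genes, 16 were among the 1311 strongest of replicate 1 (5.95%, background 5.13%) and 18 among those of replicate 2 (6.69%, background 5.42%). The genes with replicate 1 only were nhr-49, nhr-48 and nhr-57. Those with replicate 2 only were nhr-135, nhr-132, nhr-104, nhr-69 and nhr-8. The nhr-132 region ranked 2159 in replicate 1, with a signal of 17.8, and 217 in replicate 2, with a signal of 61.9. The nhr-69 region ranked 3004 and 555. Replicate summits at the 18 genes lay a median of 39.5 bp apart, with 11 of 18 within 50 bp and the widest gap, 253 bp, at nhr-48.

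Further genes with an IDR summit and no listed role were nhr-105, nhr-32, nhr-135, nhr-255 and nhr-104. The nhr-105 peak (chromosome IV, 7049661 to 7049984) scored 70.3 in the pooled list, with 30.0 in replicate 1 (rank 755) and 38.3 in replicate 2 (rank 814). The nhr-32 peak (chromosome X, 13251451 to 13251774) scored 59.5, with 24.8 in replicate 1 and 34.2 in replicate 2. The nhr-135 peak (chromosome V, 7093836 to 7094159) scored 58.5, with 22.6 in replicate 1 and 33.0 in replicate 2. All 3 ranked close to alike in both replicates, at 1140 and 1125 for nhr-32 and 1386 and 1240 for nhr-135. The nhr-255 peak (chromosome X, 15741885 to 15742208) scored 57.9, with 25.9 in replicate 1 and 33.5 in replicate 2. The nhr-104 peak (chromosome IV, 4788413 to 4788736) scored 52.3, with 15.4 in replicate 1 (rank 2783) and 40.1 in replicate 2 (rank 705).

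Another 6 genes were among the 1311 strongest regions of 1 replicate without an IDR summit. In replicate 1 they were nhr-12 (rank 665), nhr-35 (1204) and nhr-17 (1227), and in replicate 2 nhr-90 (711), nhr-1 (762) and nhr-50 (962). The nhr-90 region of replicate 2 had a signal of 40.03 with its summit 110 bp upstream, yet the nearest pooled summit lay 2973 bp from the gene. Across the 113 genes with a region in both replicate lists, replicate signals had a Spearman correlation of 0.589, and 0.747 for the 70 genes whose summits lay within 200 bp of each other. These are descriptions across genes of the same libraries, and genes are not replicates.

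**Figure D2:**
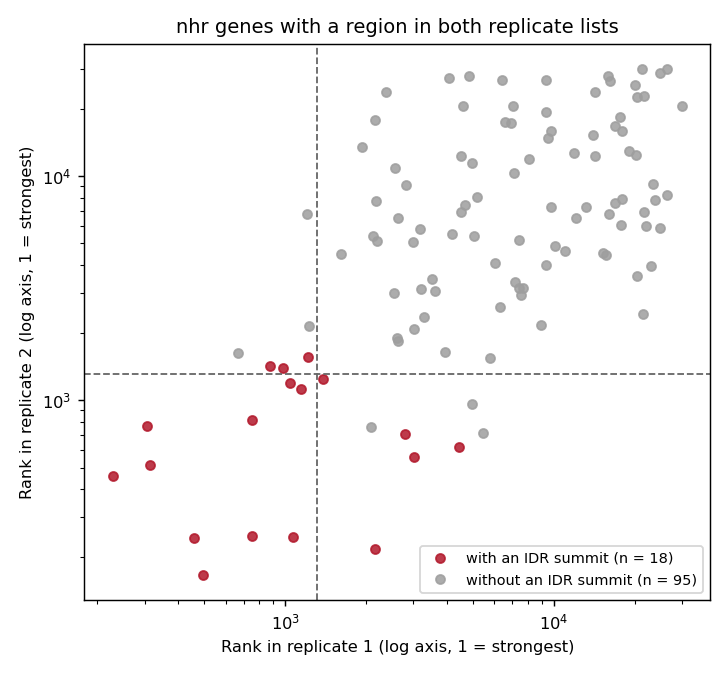
Rank of the strongest region in replicate 1 (x axis) and replicate 2 (y axis), both logarithmic with 1 as the strongest, for the 113 nhr genes with a region in both lists. Dashed lines mark rank 1311; 10 of the 18 genes with an IDR summit (red) lie past both lines, and the other 95 genes (grey) never do.

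Just inside the threshold lay nhr-57 (51.5), nhr-48 (51.4) and nhr-8 (49.5), and just outside lay nhr-1 (48.3), nhr-50 (47.98) and nhr-80 (44.8), beside a weakest IDR peak of 49.2. On the distance scale, the farthest summit counted was that of nhr-69, 832 bp upstream. Outside the window, the strongest IDR peak within 2000 bp of any nhr gene was that of nhr-84 (chromosome V, 15880657 to 15880888). It had a pooled signal of 200.2 and rank 61, with rank 767 in replicate 1 and 38 in replicate 2, and its summit was 1150 bp upstream. No gene other than piRNA genes started closer to that summit than nhr-84. The remaining genes with an IDR summit only between 1000 and 2000 bp away were nhr-10 (1397 bp upstream, signal 52.9), nhr-21 (1534 bp upstream, 60.2) and nhr-19 (1934 bp downstream, 63.3). The nhr-19 summit lies within the gene body.

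Among receptors with described roles in metabolism or stress, 4 of 18 had an IDR summit (22.2%, exact 95% interval 6.41 to 47.6%), and 16 of 18 had a pooled region (88.9%, 65.3 to 98.6%). The shares over all coding genes were 5.61% and 40.2%. The list was drawn up with earlier results of these data known, so the intervals cannot show that it differs from all coding genes. That difference was not tested. Of the nhr genes in neither this list nor that of conserved receptors, 12 had an IDR summit (5.02%, 2.62 to 8.61%) and 107 a pooled region (44.8%, 38.4 to 51.3%). For the same reason these intervals cannot show a difference from the listed receptors, which was not tested.

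The strongest of the metabolic receptors was nhr-68, which acts in the transcriptional switch to the propionate shunt when vitamin B12 is low. Its peak (chromosome V, 11572945 to 11573268) scored 85.4 in the pooled list, with 43.5 in replicate 1 (rank 305) and 39.1 in replicate 2 (rank 768). The summit was 333 bp upstream of nhr-68 and 117 bp from the start of H12C20.7, a coding gene on the opposite strand. The partner of nhr-68 in that switch, nhr-10, had a pooled signal of 19.4 within 1000 bp and the IDR summit farther upstream given above.

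The nhr-49 and nhr-69 genes lie 11853 bp apart on chromosome I, and both had an IDR summit. The nhr-49 receptor controls fatty acid desaturation, beta-oxidation and the fasting response. Its peak, from 9869082 to 9869405, had a pooled signal of 63.1, with 27.95 in replicate 1 and 31.2 in replicate 2, and its summit was 407 bp upstream. The nhr-69 receptor, an HNF4 relative, has been described in the control of insulin secretion. Its peak had 60.9, with 14.7 in replicate 1 and 43.9 in replicate 2. No other nhr gene of chromosome I had an IDR summit, and 7 of the 23 nhr genes of that chromosome had any pooled region. The hypoxia-induced receptor gene nhr-57 on chromosome V had 51.5, with 24.0 and 30.1 at the strongest regions of replicates 1 and 2. The replicate 2 summit lay 164 bp upstream, outside the IDR peak, whose summit was 355 bp upstream. With 50% reciprocal overlap between replicates nhr-57 was not called.

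Other fat metabolism receptors lay lower. The gene of nhr-80, which promotes fatty acid desaturase expression, had a pooled signal of 44.8 at rank 1587, with its summit 300 bp from the coding gene H10E21.1 and 603 bp from nhr-80. That of nhr-66, a partner of nhr-49, had 11.2 at rank 21321. The gene of nhr-13, which acts with nhr-80 on desaturases, had a region in replicate 1 alone, at rank 1937. Receptors of this list therefore ranged from rank 362 to no pooled region at all.

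Among 12 conserved receptors, 2 had an IDR summit (16.7%, exact 95% interval 2.09 to 48.4%, background 5.61%) and 6 a pooled region (interval 21.1 to 78.9%, background 40.2%), with a median pooled rank of 13466. Both intervals include the background. The 2 were nhr-8, which maintains cholesterol balance and resistance to toxins, and nhr-48, both relatives of the dafachronic acid receptor daf-12. The nhr-8 gene had a region on either side of its 5' end. One, 98 bp downstream in the annotated 5' UTR, had a pooled signal of 49.5, with 11.5 in replicate 1 and 42.4 in replicate 2. The other, 1076 bp upstream and 138 bp from the mitochondrial ribosomal protein gene mrps-24, had 56.97, with 14.1 in replicate 1 and 38.3 in replicate 2. The nhr-48 peak (chromosome X, 15707530 to 15707853) had 51.4, with 26.5 and 31.6 in replicates 1 and 2.

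The conserved moulting and developmental receptors had weak regions or none. The nhr-23 and nhr-25 genes, which drive larval moulting, had pooled signals of 12.7 (rank 17502) and 13.4 (rank 15999). The gene of nhr-85, which acts in developmental timing, had 12.6 (rank 17739). No pooled region lay at nhr-67, a tailless relative, at nhr-6, an NR4A relative needed for the spermatheca, or at nhr-41, nhr-235, nhr-236 or nhr-239. Of the 5 nuclear receptors with other names, daf-12 had a pooled signal of 22.1 (rank 6431), and fax-1, odr-7, sex-1 and unc-55 had no pooled region.

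Genes that work with these receptors were taken from 3 further lists, drawn up with earlier results of these data known. Of 17 coregulator genes found in the annotation, 3 had an IDR summit and 13 a pooled region (76.5%, exact 95% interval 50.1 to 93.2%). The background was 40.2%, but a list drawn up in this way cannot show a difference, which was not tested. The 3 with an IDR summit were cbp-1, a histone acetyltransferase (pooled signal 120.9), mdt-6, a Mediator subunit (104.7), and din-1, the corepressor of daf-12 (85.2). Their summits lay 867, 913 and 775 bp upstream, and whether another gene started nearer is not given here. The Mediator gene mdt-15, the coactivator of nhr-49, had 15.3 at rank 12952. Of 8 hormone synthesis and transport genes only emb-8, the cytochrome P450 reductase gene, had an IDR summit (50.03), and daf-9 and hsd-1 had no pooled region. The emb-8 summit lay 914 bp upstream, with rank 3751 in replicate 1 and 853 in replicate 2. Of 14 described target genes only acs-2, an acyl-CoA synthetase gene activated through nhr-49, had an IDR summit (57.5). That summit lay 712 bp upstream, with rank 1054 in replicate 1 and 1774 in replicate 2. For emb-8 and acs-2, too, whether another gene started nearer is not given here. The fat-6 gene had a pooled signal of 39.7, and fat-5 and fat-7 had no pooled region. Pooled regions lay at 4 of the 8 hormone genes (15.7 to 84.3%) and 9 of the 14 targets (64.3%, 35.1 to 87.2%), and both intervals include 40.2%. The region of the coregulator gene cic-1 (signal 27.8, rank 4082) was also that of the hormone gene strm-1 and counted in both lists. For IDR summits each count is small, and the exact 95% intervals of all 3 lists (3.799 to 43.4%, 0.316 to 52.7% and 0.181 to 33.9%) include the background of 5.61%.

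The receptor peaks lay mainly upstream. Summits were upstream of the 5' end at 16 of 18 genes (88.9%), against 88.0% of other coding genes with an IDR summit, and 14 were intergenic. The median distance to the 5' end was 333 bp at nhr genes and 252 bp at the other coding genes. The exceptions downstream were nhr-8 and nhr-104, both in their own 5' UTR. Over all 129 pooled regions, 92 lay upstream (71.3%), against 71.8% for other coding genes.

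**Figure D3:**
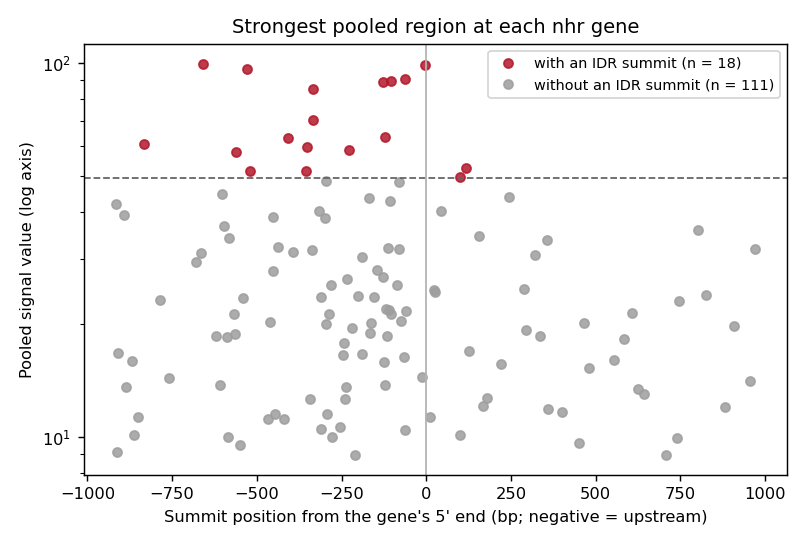
Summit position relative to the 5' end (x axis, bp, negative upstream) and pooled signal value (y axis, logarithmic) of the strongest pooled region at each of 129 nhr genes. The 18 genes with an IDR summit (red) lie above the dashed line at the weakest IDR peak, 49.2, and 16 of them lie upstream.

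Chromosome V holds 167 of the 269 nhr genes (62.1%). An IDR summit lay at 9 of 167 genes on V (5.39%, exact 95% interval 2.49 to 9.98%), against 3.83% of the other coding genes of V. Off chromosome V the count was 9 of 102 (8.82%, 4.11 to 16.1%), against 6.09%, and the intervals on and off V overlap. Chromosome X had 4 of 23 (17.4%, 4.95 to 38.8%), against 6.09% of its other coding genes. Those on X were nhr-3, nhr-32, nhr-255 and nhr-48. Chromosome IV had 3 of 33 (nhr-105, nhr-104 and nhr-8) and chromosome I had 2 of 23. With replicate 2 left out, the count for chromosomes I to IV was 2 in place of 5. Chromosomes II and III had 0 of 15 and 0 of 8, with upper limits of 21.8% and 36.9%. Every one of these intervals includes the share of the other coding genes on the same chromosome. At the rate of the other coding genes of each chromosome, the family would hold 12.4 genes with a summit, beside the 18 observed, a difference that was not tested.

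Pooled regions were compared with the other coding genes of each chromosome in the same way. On V, 79 of 167 nhr genes had one (47.3%, 39.5 to 55.2%), against 30.1% of the other coding genes of V. On X it was 17 of 23 (73.9%, 51.6 to 89.8%), against 44.5%. On I the order was the other way, with 7 of 23 (30.4%, 13.2 to 52.9%) against 45.7%. The shares of the other coding genes lay outside the nhr interval on V and X and inside it on I, II, III and IV. Median pooled signal was 33.6 for the 17 genes on X and 20.3 for the 79 on V.

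**Figure D4:**
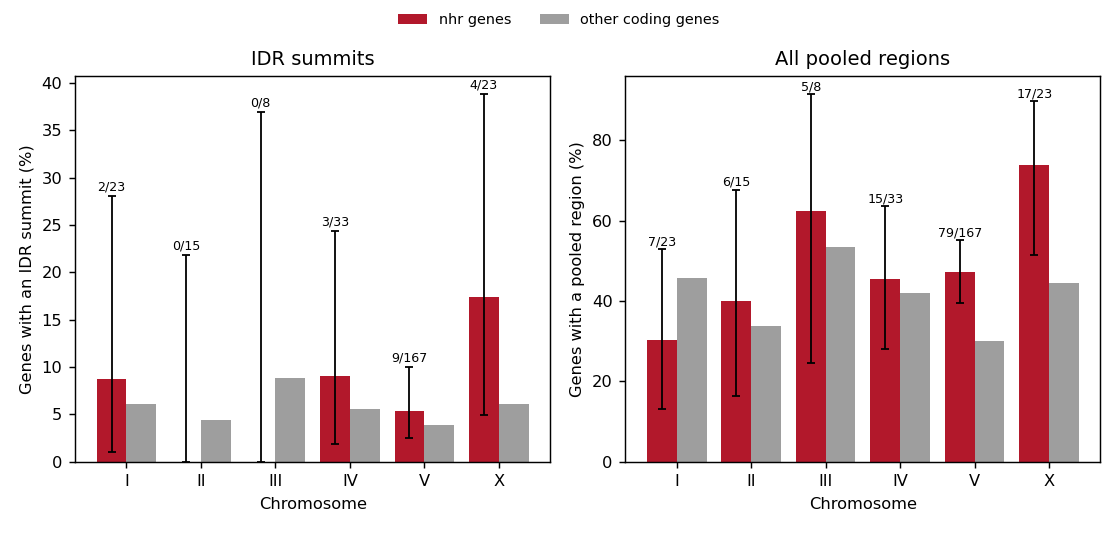
Percentage of nhr genes (red) and of other protein-coding genes (grey) with an IDR summit (left panel) or any pooled region (right panel) within 1000 bp of the 5' end, by chromosome. Bars start at 0, error bars are exact 95% binomial intervals for the nhr genes and the fractions above give genes with a region over all nhr genes; on V and X the right panel places the other coding genes (30.1% and 44.5%) below the nhr intervals.

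Along chromosome V, cut into 3 parts of equal length, the left part held 7 of 78 nhr genes with an IDR summit (8.97%, exact 95% interval 3.68 to 17.6%), against 3.79% of its other coding genes. The middle part had 2 of 41 (4.88%, 0.596 to 16.5%), against 5.12%, and the right part had 0 of 48 (0 to 7.40%), against 2.45%. These intervals overlap. Pooled regions were found at 40 nhr genes of the left part (51.3%, against 29.4% of its other coding genes). They were found at 23 of the middle part (56.1%, against 36.3%) and 16 of the right part (33.3%, against 23.8%). Many of the V genes stand in rows of receptor genes.

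Genes were grouped into rows where neighbouring nhr 5' ends lay within 20 kb, a cutoff chosen after the counts above. Of 97 nhr genes standing alone, 10 had an IDR summit (10.3%, exact 95% interval 5.06 to 18.1%). Rows of 2 or 3 genes had 4 of 72 (5.56%, 1.53 to 13.6%) and rows of 4 or more had 4 of 100 (4.0%, 1.10 to 9.93%), and the intervals overlap. Pooled regions lay at 55.7% of the genes standing alone, 33.3% of those in rows of 2 or 3 and 51.0% of those in rows of 4 or more. The background was 40.2%. The rows named below were picked after their values were seen, and rows differed widely. In the row of 7 genes from nhr-178 to nhr-238, between 1607953 and 1629432 on V, all 7 had a pooled region. There nhr-238 had a signal of 88.8, with 25.7 in replicate 1 and 58.9 in replicate 2, while the other 6 lay between 13.6 and 24.8. The row of 12 genes from nhr-123 to nhr-131, between 451451 and 494370, had 10 with a pooled region. It was led by nhr-202 (89.4, with 30.0 in replicate 1 and 58.7 in replicate 2) and nhr-203 (43.5). By contrast, the row of 10 genes from nhr-185 to nhr-156 had 1 pooled region, and the row of 5 from nhr-60 to nhr-282 had none. Receptor genes of 1 row can be similar in sequence, and how the submitters placed reads that match several copies is unknown, so the assignment to a single gene of a row is uncertain.

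Distance to non-coding genes was measured from the 5' end of each nhr gene to the nearest 5' end of a non-coding gene, piRNA genes and pseudogenes aside. Of 21 nhr genes with one within 1000 bp, 4 had an IDR summit (19.0%, exact 95% interval 5.45 to 41.9%), against 11.7% of other coding genes at that distance. Between 1000 and 5000 bp it was 5 of 52 (9.62%, 3.20 to 21.03%), against 5.10%. Beyond 5000 bp it was 9 of 196 (4.59%, 2.12 to 8.54%), against 4.61%. The share was higher near non-coding genes in both sets, and the 3 nhr intervals overlap. With the 500 bp window, 1 of the 21 near genes (4.76%) and 12 of the 248 farther genes (4.84%) had a summit, so the higher share near non-coding genes was not seen. With each summit counted for the closest gene alone, they were 1 of 21 (4.76%) and 13 of 248 (5.24%). Non-coding neighbours were less common in the family, with 7.81% of nhr genes and 11.98% of other coding genes within 1000 bp of one.

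**Figure D5:**
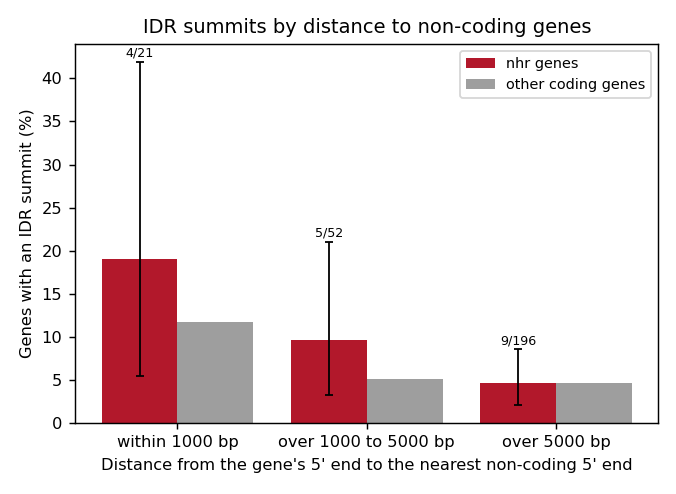
Percentage of nhr genes (red, with exact 95% binomial intervals) and of other protein-coding genes (grey) with an IDR summit, by the distance from the 5' end to the nearest non-coding 5' end. The nhr shares were 19.0%, 9.62% and 4.59% from near to far, and the fractions above the bars give genes with a summit over all nhr genes.

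The same split was made within chromosomes. On V, 2 of 8 nhr genes within 1000 bp of a non-coding 5' end had an IDR summit, 3 of 19 between 1000 and 5000 bp and 4 of 140 beyond, against 7.14%, 4.30% and 3.09% of the other coding genes of V. On X the counts were 2 of 7, 0 of 6 and 2 of 10, against 10.5%, 4.18% and 5.75%. On chromosomes I to IV they were 0 of 6, 2 of 27 and 3 of 46, against 13.4%, 5.62% and 5.04%. For nhr genes a falling share from near to far was seen on V and not on X or on I to IV, while the other coding genes had it on V and on I to IV and not on X.

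The 4 genes next to non-coding genes were nhr-3, nhr-47, nhr-142 and nhr-255. The nhr-3 summit was 659 bp upstream of the receptor gene and 68 bp from the start of the ncRNA gene H01A20.2. The nhr-47 summit was 5 bp upstream of nhr-47, in an exon of the ncRNA gene C24G6.10 on the opposite strand, 13 bp from its 5' end and 391 bp from the DnaJ chaperone gene dnj-19. The nhr-255 summit was 3 bp from the start of a tRNA gene, WBGene00014626, and 563 bp from nhr-255, and its window holds the B box. In these and the nhr-142 peak, 148 bp from the coding gene F44E7.9, several 5' ends share 1 summit.

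Most receptor summits had no further coding gene close by. Another coding 5' end lay within 1000 bp of the summit at 3 of 18 nhr genes, against 574 of the other 1103 coding genes with an IDR summit (52.0%). A non-coding 5' end was that close at 5 of 18, against 291 of 1103 (26.4%). The nhr gene was the nearest 5' end to its summit at 14 of 18 genes, while a non-coding gene was nearer at nhr-3 and nhr-255 and another coding gene at nhr-142 and nhr-68. Among the other 1103, the gene itself was nearest at 648 (58.7%). These differences were not tested. Irrespective of peaks, 8.18% of nhr genes and 23.7% of other coding genes lay within 1000 bp of another coding 5' end.

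In the stronger 50% of the IDR list, 8 of the 18 genes had a peak (2.97% of all nhr genes), close to the background of 2.91%. They were nhr-3, nhr-47, nhr-142, nhr-58, nhr-202, nhr-238, nhr-68 and nhr-105. With a 500 bp window 13 genes remained (4.83% of all nhr genes, background 4.35%), and on X only nhr-32 did. Across the 11 alternatives planned for the summit count, nhr-47, nhr-58, nhr-105 and nhr-238 were called in all. The conserved receptor gene nhr-48 was called in 8, nhr-8 and nhr-104 in 7, and nhr-69 in 6. With either form of support from both replicates, nhr-8, nhr-104 and nhr-69 were not called.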

How the data were processed

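Peak lists of eGFP-tagged ZTF-7 ChIP-seq from 2 replicates of L4 larvae were used as deposited on build ce11; lists on ce10 were not used. Signal values and −log10 q-values are those the authors deposited. The lists derive from the ChIP alignments and 1 further file, per the notes the authors deposited. The sources used here name no caller, aligner or IDR cutoff. The IDR list held 1311 peaks, and the pooled and replicate lists 30000 regions each, which the authors label as peaks and background. The files used hold no read counts, so depth is unknown.

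Each gene took the region of highest signal with its summit at most 1000 bp from the 5' end (Ensembl release 115). The text names all nhr genes with an IDR summit, the next 5 by pooled signal, those strong in 1 replicate, and members of lists. Genes outside this rule (nhr-84, nhr-21, nhr-19 and nhr-225, the first and last genes of rows, and genes sharing a summit) were chosen after their values were seen. Members and lists were chosen with earlier results of these data known. With 1 group no test was made, and shares carry exact 95% binomial intervals. Planted summits checked the window rule, which called 200 of 200 inside and 0 of 200 outside. Alternatives were other windows, assignments, thresholds, replicate support and each replicate alone. Summits in the gene body, rows of genes, parts of V and the summit context were added after seeing the data. Software was matplotlib 3.10.9, scipy 1.17.1, pandas 2.3.3, numpy 2.4.6 and Python 3.11.15.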

Additional observations from a re-analysis of the deposited data

How the results depend on the processing

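The count of 18 nhr genes with an IDR summit became 13 with the 500 bp window (4.83%, background 4.35%). With 2000 bp it was 22 (8.18%, background 7.96%). With the nearest coding 5' end it was 16 (5.95%, background 4.15%). With the nearest 5' end of any gene other than piRNA it was 14 (5.204%, background 3.33%). It was 15 with support from both replicates (5.58%, background 4.5%) and 12 with 50% reciprocal overlap (4.46%, background 3.81%). It was 18 with other transcripts' 5' ends (background 5.91%) and with interval overlap (background 5.95%). With gene bodies included, an alternative added after seeing the data, it was 20 (7.43%, background 6.48%). Leaving out 1 replicate meant taking the 1311 strongest regions of the other, with no IDR step. The count was then 16 with replicate 1 alone (5.95%, background 5.13%) and 18 with replicate 2 alone (6.69%, background 5.42%). Of these, 13 and 15 were among the 18 with an IDR summit. In the upper 50% of peaks it was 8 (2.97%, background 2.91%).

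On chromosome X, 4 genes became 1 with the 500 bp window or the upper 50%, 2 with the nearest 5' end of any gene, and 4 to 6 without 1 replicate. On chromosomes I to IV, 5 became 8 with 2000 bp, 1 in the upper 50%, 2 with either form of replicate support, 4 without replicate 1 and 2 without replicate 2. Within 1000 bp of a non-coding 5' end, 4 became 1 with the 500 bp window or the nearest 5' end of any gene; farther away, 14 became 5 in the upper 50% and 9 with reciprocal overlap. On V the count stayed between 6 and 10. The 129 of 269 genes with a pooled region became 107 with the 500 bp window, against 31.2% of other coding genes. With 2000 bp they became 148, against 49.5%. With piRNA genes and pseudogenes counted as non-coding, 6 genes lay within 1000 bp and 12 farther away. No paired analysis was possible because there was only 1 group. Depth is unknown and limits are those of the ranked lists.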
